A study of Mus musculus with 12 samples.

Results

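The interaction of 2 gene losses is the extent to which the loss of both departs from the sum of the losses taken singly. It was measured here over all 12 of the 12 RNA libraries of the series, read as a 2 by 2 design with 3 libraries in each of 4 groups of mouse embryonic fibroblasts, a primary culture of connective tissue cells. The groups, by genotype, were wild type (WT), Gadd45a knockout (Gadd45a KO), Ing1 knockout (Ing1 KO) and double knockout (DKO). All were male cells of E15.5 embryos on a C57BL/6N background, taken at passage 4 and 80% confluency, from matings of a Gadd45a-deficient with an Ing1-deficient line. The labels give the mice as deficient in the gene and name no promoter or Cre, and they leave it unsaid if replicates are different embryos. The p-values therefore measure the spread between libraries, which may be technical.

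Ing1 encodes a founding member of the inhibitor of growth family, whose plant homeodomain finger binds histone H3 trimethylated at lysine 4, a mark of active promoters, and which works as part of Sin3-HDAC complexes that remove acetyl groups from histones. Gadd45a encodes a small stress-induced nuclear protein with roles in cell cycle arrest, DNA repair and active DNA demethylation, for which Ing1 has been described as the protein that brings it to its sites. If 2 proteins act in a chain, losing the second adds little to losing the first, and if they can replace each other, losing both does more than the sum. The contrast below measures such departures and does not tell which arrangement holds.

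For each gene the interaction was the log2 fold change DKO minus Gadd45a KO minus Ing1 KO plus WT. A value of 0 means that both single changes added up on the log2 scale, and a value of 1 means that the level in DKO was 2-fold above that sum. The same number is the Ing1 effect in the Gadd45a KO background (DKO minus Gadd45a KO) less the Ing1 effect in the WT background (Ing1 KO minus WT). Levels are CPM, counts scaled to library size, and a gene is called when its adjusted p in edgeR's quasi-likelihood test, with Benjamini-Hochberg adjustment over all 15098 genes tested, is under 0.05. Libraries held 31493168 to 42852059 gene counts each, and the biological coefficient of variation was 8.2%. Libraries of a group were not alike in every respect: the first WT and the first Gadd45a KO library held less of the macrophage genes described below than the other 2 of their group.

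The labels were checked on both targeted genes. Ing1 stood at 52.1, 50.4 and 54.4 CPM in WT, at 49.7, 54.5 and 52.2 CPM in Gadd45a KO, at 1.01, 1.23 and 1.42 CPM in Ing1 KO and at 1.29, 0.916 and 1.14 CPM in DKO. It fell with Ing1 loss in both backgrounds, with an interaction of -0.12 ± 0.16 (log2 ± SE, adjusted p = 0.676 in edgeR). Gadd45a goes against its label: it stood at 20.9, 21.1 and 21.3 CPM in WT and 18, 20.5 and 16.7 CPM in Ing1 KO, but at 75.9, 118 and 106 CPM in the libraries labelled Gadd45a KO and 132, 120 and 127 CPM in those labelled DKO. Counts per gene do not show which exons the reads came from, and Gadd45a overlaps E230016M11Rik on the other strand, which reads of this kit cannot separate. Gadd45a KO and DKO are therefore the labels of these libraries throughout, and every direction below rests on those labels.

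An interaction was called for 2687 of 15098 genes (17.8%). Of these, 1569 lay above the sum of the single changes (10.4% of genes tested) and 1118 below it (7.4%). Most departures were small: the median size among called genes was 0.46 on the log2 scale, and 486 genes above and 145 below the sum departed by 2-fold or more. The median over all genes tested was 0.01. The background of the sum matters here, because the libraries labelled Gadd45a KO differed from WT in only 1 called gene, Gadd45a itself, out of 15098 (28 with DESeq2, and 1331 at an unadjusted p under 0.05 in edgeR). The sum for DKO differs from the level in Ing1 KO by the difference of Gadd45a KO from WT, which entered whether it was called or not.

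Ing1 loss changed many genes in both backgrounds. In the WT background 1828 genes rose (12.1%) and 1715 fell (11.4%), and in the labelled Gadd45a KO background 2387 rose (15.8%) and 1601 fell (10.6%). These 2 comparisons share no library. A total of 1164 genes were called in both, which is 32.9% of the first list and 29.2% of the second, and 973 of them moved in the same direction. The other 191 moved in opposite directions, and an interaction was called for all 191. Of these, 111 fell with Ing1 loss in the WT background and rose in the labelled Gadd45a KO background and 80 did the reverse. Among the remaining interaction calls, 956 genes changed with Ing1 loss only in the WT background, 1285 only in the labelled Gadd45a KO background, 59 in both in the same direction and 196 in neither. These 3 comparisons share libraries, so the counts describe how the calls are built and are not independent of each other.

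**Figure D1:**
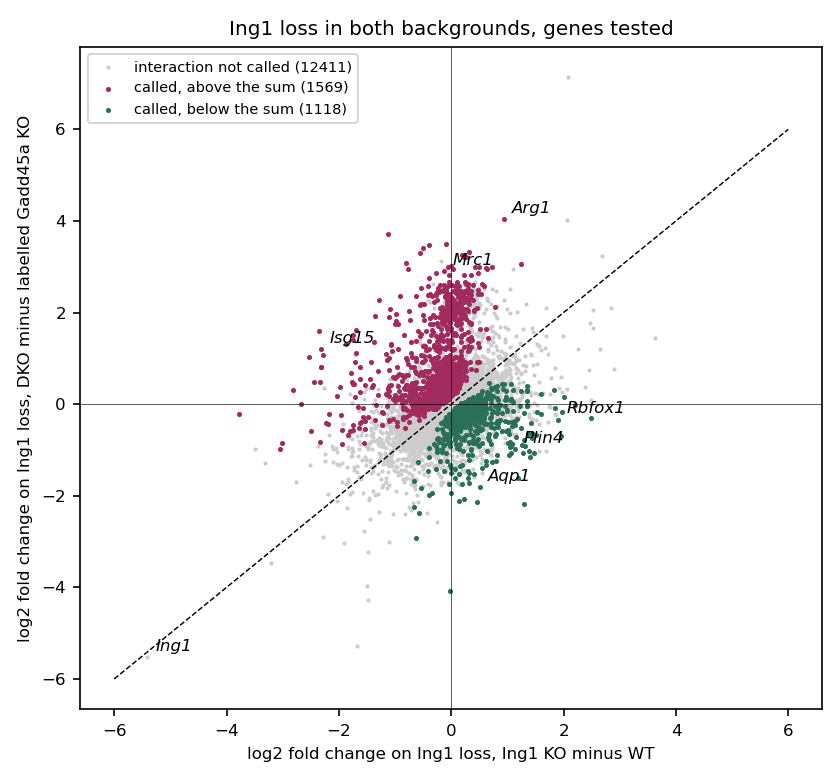
Log2 fold change on Ing1 loss in the WT background (horizontal axis) and in the labelled Gadd45a KO background (vertical axis), 1 point per gene tested. Genes on the dashed line added up; the 1569 genes called above the sum lie above it, with Mrc1 near 0 on the horizontal axis and high on the vertical one, and the 1118 called below it lie under it.

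Where a single group could be named, the departure arose in DKO or in Ing1 KO, and for 52% of the called genes none could. A group was called apart when it differed from each of the other 3 groups in the same direction, by the calls of the single comparisons, and no pair among those 3 was called different. By this rule DKO stood apart for 930 of the 2687 genes, 744 of them above the sum and 186 below. Ing1 KO stood apart for 359 genes, 160 above the sum, where Ing1 KO was the low group, and 199 below it, where Ing1 KO was the high group. WT or Gadd45a KO stood apart for 0 genes, which the rule allows only for Gadd45a, since no other gene was called between those 2 groups. The remaining 1398 genes had no single group apart. Naming instead the group farthest from the mean of the other 3, with no test, gave DKO for 1418 of the called genes (52.8%), Ing1 KO for 1028 (38.3%), WT for 171 (6.36%) and Gadd45a KO for 70 (2.61%). Over all genes tested the shares were 37.9%, 31.1%, 18.4% and 12.6%. In 959 of the called genes all 3 DKO libraries lay above the other 9, and in 314 all 3 lay below, against 1769 and 769 of all genes tested. For Ing1 KO the numbers were 432 and 371 of the called genes, against 736 and 715 of all tested. WT had 65 and 76 against 316 and 326, and Gadd45a KO 28 and 34 against 138 and 112.

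**Figure D2:**
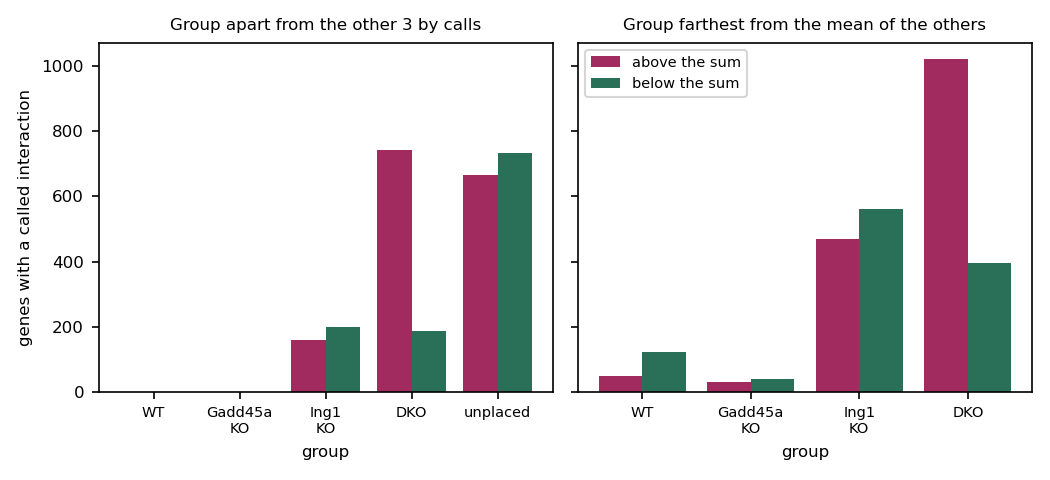
Number of genes with a called interaction (vertical axis) by the group in which the departure arose (horizontal axis), with genes above the sum and genes below it as separate bars. By calls, DKO stood apart for 744 genes above and 186 below the sum and Ing1 KO for 160 and 199; by distance the numbers for DKO were 1022 and 396.

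Genes of the type I interferon response changed in opposite directions with Ing1 loss in the 2 backgrounds. Interferons bind receptors that activate transcription factors such as Irf9, and these bind the interferon-stimulated response element (ISRE) in the promoters of antiviral genes. Of 39 list members 37 were tested, 32 were called above the sum (86.5% against 10.4% of all genes) and 0 below. The median interaction was 2.04, against 0.01 over all genes. In the WT background 32 of the 37 fell on Ing1 loss, with a median log2 change of -1.07. In the labelled Gadd45a KO background 24 rose and 2 fell, with a median of 0.73, and 20 of the called members moved in opposite directions in the 2 backgrounds. The levels in DKO were close to WT, with a median log2 difference of 0.14, 8 members higher and 5 lower. In the labelled Gadd45a KO libraries the list had a median log2 difference from WT of -0.44, with 0 members called in edgeR, 23 lower at an unadjusted p under 0.05 and 7 lower with DESeq2. The summed macrophage genes described below overlapped between Ing1 KO (543 to 956 CPM) and WT (421 to 729 CPM) and were highest in DKO (3276 to 3997 CPM), and their part in the interferon result was not tested.

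The promoters of the interferon genes were searched for the element that this pathway reads. RefSeq start sites on GRCm38.p6 gave a promoter for 28 of the 37 members, from 250 bases before the start to 50 after it. The ISRE was searched on both strands as GAAA, any 2 bases and GAAA; overlapping matches were kept. It was found in 15 of the 28 genes (53.6%), in 3 of 22 macrophage genes (13.6%) and in 3.99% of the 27025 genes of the table. The core of the PU.1 motif, GAGGAAGT, PU.1 being the factor that directs macrophage development, was found in 4 of those 22 macrophage genes (18.2%), in 0 of 28 interferon genes and in 3.69% of all genes. A match describes the letters of these windows and no binding. The 150 bases before the start of 4 members are shown because their promoters hold the element and their RNA departed from the sum by over 4-fold, with the matches in capitals. They lie at chr4:156200819-156200968 on the minus strand for Isg15, chr19:34640739-34640888 on the plus strand for Ifit1, chr8:71537473-71537622 on the minus strand for Bst2 and chr3:142559894-142560043 on the plus strand for Gbp3, which has another promoter in the table without a match.
Isg15: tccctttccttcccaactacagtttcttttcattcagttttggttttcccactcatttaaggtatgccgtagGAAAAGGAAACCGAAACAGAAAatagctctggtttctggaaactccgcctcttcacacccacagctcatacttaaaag
Ifit1: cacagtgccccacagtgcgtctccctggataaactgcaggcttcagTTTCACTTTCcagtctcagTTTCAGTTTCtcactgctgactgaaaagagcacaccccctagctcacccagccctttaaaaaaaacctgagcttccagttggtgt
Bst2: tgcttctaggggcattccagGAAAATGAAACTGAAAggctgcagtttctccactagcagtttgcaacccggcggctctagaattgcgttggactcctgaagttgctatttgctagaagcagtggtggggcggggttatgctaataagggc
Gbp3: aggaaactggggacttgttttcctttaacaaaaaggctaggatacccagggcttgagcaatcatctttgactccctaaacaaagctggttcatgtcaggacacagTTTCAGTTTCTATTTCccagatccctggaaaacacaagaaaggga
The matches of Isg15 began 78, 72 and 66 bases before the start and ran into each other, as did those of Bst2 at 130 and 124 bases and those of Gbp3 at 45 and 39 bases. The 2 matches of Ifit1 stood apart, at 104 and 85 bases.

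Among the effectors, Isg15, a ubiquitin-like modifier, stood at 22.7, 21.6 and 12.5 CPM in WT, 11, 7.21 and 9.09 CPM in Gadd45a KO, 3.13, 3.93 and 4.34 CPM in Ing1 KO and 18.2, 17.5 and 26.9 CPM in DKO. Ing1 KO was lowest and no library of it reached another group, while DKO and WT overlapped. The sum of the single changes gave 1.82 CPM for DKO, and the interaction was 3.52 ± 0.38 (log2 ± SE, adjusted p = 0.00125, edgeR). Ing1 loss lowered Isg15 by 2.32 on the log2 scale in WT (-2.32, adjusted p = 0.000663) and raised it by 1.2 in the labelled Gadd45a KO background (adjusted p = 0.00802).

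Bst2, the membrane protein tetherin that holds virus particles on the cell, also changed in opposite directions. Its levels were 35.7, 31.9 and 24.3 CPM in WT, 24.7, 21 and 22.3 CPM in Gadd45a KO, 13.8, 14.2 and 13.5 CPM in Ing1 KO and 43.3, 41.9 and 47.6 CPM in DKO. All 3 DKO libraries lay above the other 9 and all 3 Ing1 KO libraries below them, with an interaction of 2.11 ± 0.17 (adjusted p = 0.0002, edgeR). Ifit1, which binds foreign RNA caps, had an interaction of 3.59 ± 0.47, and Usp18, the protease that removes Isg15 and damps the receptor, 3.35 ± 0.39. Trim30a, at 1.79 ± 0.16, and the kinase Eif2ak2, which halts translation on double-stranded RNA, at 0.91 ± 0.1, also fell with Ing1 loss in WT and rose with it in the labelled Gadd45a KO background.

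Regulators of the pathway departed in the same direction as its targets. Irf9 averaged 36.9 CPM in WT, 29.5 in Gadd45a KO, 22.1 in Ing1 KO and 35 in DKO, with an interaction of 0.99 ± 0.13. In the same order Irf7, the factor that amplifies interferon production, averaged 7.76, 4.56, 2.9 and 8.59 CPM, with 2.34 ± 0.38. For Irf9 and Stat2 (0.92 ± 0.18) Ing1 KO was the group apart. Gbp3, a guanylate binding protein, and the nuclear body gene Sp100 were also low in Ing1 KO alone. Gbp3 stood at 7.62, 7.17 and 5.65 CPM in WT, 5.03, 4.21 and 3.87 CPM in Gadd45a KO, 2.12, 1.95 and 2.06 CPM in Ing1 KO and 5.21, 5.18 and 7.24 CPM in DKO, with an interaction of 2.17 ± 0.23 (adjusted p = 0.00044, edgeR). Lgals3bp, a secreted glycoprotein, had the same order, with 1.51 ± 0.17. Members not called were Oas3, Ifi35, Ifi27, Herc6 and Samd9l, whose interactions ran from 0.22 to 1.84.

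Macrophage genes departed in DKO alone. Macrophages are phagocytes that seed embryonic tissues early and can be present in cultures made from embryos. They are known by the receptor Csf1r, the lysozyme Lyz2, the complement genes C1qa to C1qc and the scavenger receptors Mrc1 and Msr1. The summed level of the 30 list members was 421, 729 and 693 CPM in WT, 222, 851 and 831 CPM in Gadd45a KO, 616, 543 and 956 CPM in Ing1 KO and 3997, 3363 and 3276 CPM in DKO. No DKO library overlapped another group, and the lowest 2 libraries were the first of Gadd45a KO and the first of WT. In bulk RNA more cells of a type and more RNA per cell cannot be told apart.

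Of 29 macrophage members tested, 16 were called above the sum (55.2% against 10.4% of all genes) and 0 below. Their median interaction was 2.1 over the 29, and DKO was the group apart for all 16. Ing1 loss gave 0 calls of 29 in the WT background by edgeR's adjusted p, 0 at an unadjusted p under 0.05 and 0 with DESeq2, with a median log2 change of 0.2, while all 29 rose in the labelled Gadd45a KO background, with a median of 2.4. The count of calls was not stable against single libraries: leaving out 1 library at a time gave 2 to 24, with 2 without WT replicate 2, WT replicate 3 or Ing1 KO replicate 2. DESeq2 called 29. The sign was positive for all 29, with values from 1.68 to 3.05.

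Mrc1, the mannose receptor, stood at 17.9, 38.8 and 35.2 CPM in WT, 10.3, 44.8 and 44 CPM in Gadd45a KO, 25.3, 21.3 and 38.1 CPM in Ing1 KO and 277, 272 and 189 CPM in DKO. The sum gave 30.4 CPM, the DKO level was 8.1 times that, and the interaction was 3.01 ± 0.73 (adjusted p = 0.0259, edgeR), a call that was lost when any of 6 libraries was left out, among them WT replicates 2 and 3 and DKO replicates 1 and 2. Pf4, a chemokine of platelets and macrophages, stood at 3.24 to 5.56 CPM in WT, 1.67 to 6.59 CPM in Gadd45a KO, 3.49 to 5.73 CPM in Ing1 KO and 46.3, 40.8 and 31.3 CPM in DKO, with 3.05 ± 0.62. Csf1r averaged 27.1, 29.2, 33.8 and 138 CPM in the order WT, Gadd45a KO, Ing1 KO and DKO, with 1.91 ± 0.61 and an adjusted p of 0.0614 in edgeR, so its departure was not called.

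The genes that departed most, with a mean of 2 CPM or more, were mostly of these 2 kinds. Beside Ifit1, Isg15, Usp18 and Oasl2 the 12 highest were Ccl6, F13a1, Arg1, Pf4, Mrc1, Fcgr2b, Msr1 and Clec4n. Ccl6, a chemokine of myeloid cells, rose furthest above its sum, from 0.339 to 2.41 CPM over the 9 libraries of the other groups to 15.8, 17.3 and 9.5 CPM in DKO, with an interaction of 3.92 ± 0.75 (adjusted p = 0.00978). F13a1, a coagulation factor subunit made by tissue macrophages, had 3.86 ± 0.95, and Arg1, the arginase of alternatively activated macrophages, 3.11 ± 0.7. These were DKO departures, each with all 3 DKO libraries above the other 9. Of 12 mast cell and neutrophil markers 4 were at 0 in every library, among them Mcpt4 and Tpsb2, and the summed list stood at 0.411 to 1.26 CPM over all libraries. Of 13 endothelial markers 2, Cldn5 and Sox17, were at 0 in every library, and the summed list stood at 8.87 to 12.2 CPM outside DKO and 11.6 to 12.9 CPM in DKO. Kdr, an endothelial growth factor receptor, was called above the sum, at 3.97 to 4.77 CPM in DKO against 1.17 to 2.92 CPM elsewhere (1.64 ± 0.32). Pecam1 stood at 0.632 to 1.32 CPM in DKO against at most 0.303 CPM elsewhere. Tek went the other way, at 0.284 to 0.583 CPM in DKO against 0.816 to 2.5 CPM elsewhere. Of the 8 endothelial genes tested 3 had a positive interaction, and the median was -0.31.

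The genes with DKO apart and the smallest adjusted p were Fth1, Cerk, Hmox1 and Gpr137b, with smaller departures. Fth1, the ferritin heavy chain that stores iron, stood at 399, 418 and 379 CPM in WT, 346, 388 and 393 CPM in Gadd45a KO, 389, 366 and 390 CPM in Ing1 KO and 703, 719 and 677 CPM in DKO. The sum gave 360 CPM, and the interaction of 0.96 ± 0.08 had an adjusted p of 0.000198 in edgeR. Hmox1, the haem-degrading enzyme, went from 77.9 to 90 CPM over the 9 other libraries to 151, 140 and 137 CPM in DKO (0.75 ± 0.08). Cerk, ceramide kinase, which overlaps Gm15569 on the other strand, had 0.88 ± 0.09, and Gpr137b, a lysosomal membrane protein, 0.83 ± 0.09. The macrophage genes were also highest in these same 3 DKO libraries (a summed 3276 to 3997 CPM against 222 to 956 CPM elsewhere), and their part in these 4 results was not tested.

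**Figure D3:**
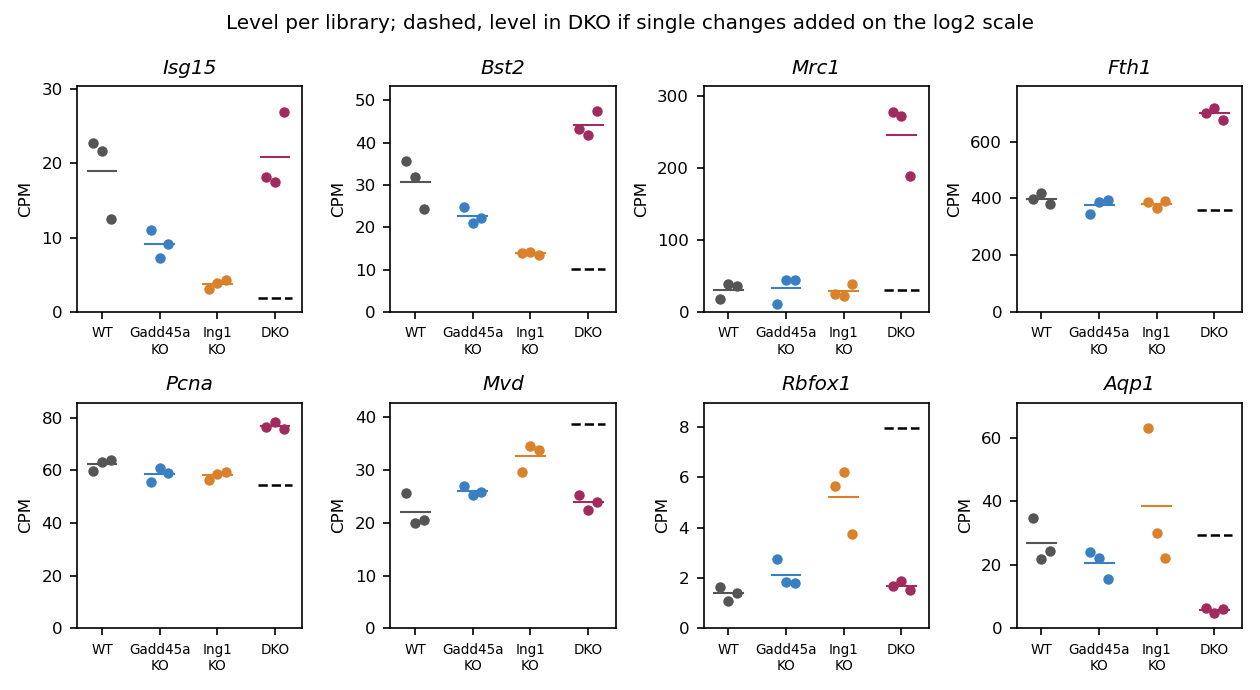
Level per library in CPM (vertical axes from 0) of 8 genes in the 4 groups, 1 point per library with the mean as a line; the dashed line is the level in DKO if both single changes had added up. Isg15 and Bst2 return above the dashed line from a low Ing1 KO level, Mrc1, Fth1 and Pcna rise in DKO alone, Mvd and Rbfox1 rise in Ing1 KO alone, and Aqp1 is lowest in DKO.

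Genes of DNA replication and of mitosis also departed upward, most of them in DKO. Cells that enter S phase raise the Mcm helicase, the clamp Pcna and the enzymes of nucleotide supply, and cells in mitosis raise cyclin B, Cdk1 and spindle genes. Of 36 replication genes, all tested, 28 were called above the sum and 0 below (77.8% against 10.4% of all genes), with a median interaction of 0.47. DKO was apart for 24 of the 28. In the labelled Gadd45a KO background 34 of 36 rose on Ing1 loss, with a median of 0.47, while in the WT background 3 rose and 1 fell, with a median of 0.02. Of 32 mitosis genes 24 were called above the sum (75% against 10.4% of all genes) and 0 below. Over the 32 the median was 0.5, and DKO was apart for 20. All 32 rose on Ing1 loss in the labelled Gadd45a KO background and 6 in the WT background. For replication the count ran from 15 to 29 when 1 library was left out, the lowest without the second WT library.

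Pcna, the sliding clamp of DNA polymerases, stood at 59.9, 63.4 and 63.8 CPM in WT, 55.8, 60.8 and 59.1 CPM in Gadd45a KO, 56.3, 58.7 and 59.3 CPM in Ing1 KO and 76.5, 78.3 and 75.8 CPM in DKO. All 3 DKO libraries lay above the other 9, the sum gave 54.5 CPM, and the interaction was 0.5 ± 0.06 (adjusted p = 0.000914, edgeR). Mcm6, a helicase subunit, had 0.51 ± 0.07, and Rrm1, the large subunit of ribonucleotide reductase, 0.53 ± 0.07. Rrm1 fell with Ing1 loss in the WT background by 0.24 on the log2 scale (-0.24, adjusted p = 0.00579) and rose by 0.29 in the other.

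Mki67, the proliferation marker Ki-67, stood at 98.3, 126 and 115 CPM in WT, 104, 111 and 98.3 CPM in Gadd45a KO, 116, 112 and 116 CPM in Ing1 KO and 165, 164 and 184 CPM in DKO, with an interaction of 0.69 ± 0.11 (adjusted p = 0.0031, edgeR). Nusap1, a spindle microtubule gene, had 0.84 ± 0.12, and Prc1, a midzone gene, 0.51 ± 0.08, but these overlap Oip5 and Rccd1 on the other strand. Not all cycle genes departed: Plk1, a mitotic kinase, rose in both backgrounds by 0.44 and 0.56, with an interaction of 0.11 ± 0.12, and Foxm1, the factor that drives mitotic genes, had 0.09 ± 0.11. The macrophage genes were highest in the same DKO libraries, and their part in the cell cycle counts was not tested.

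**Figure D4:**
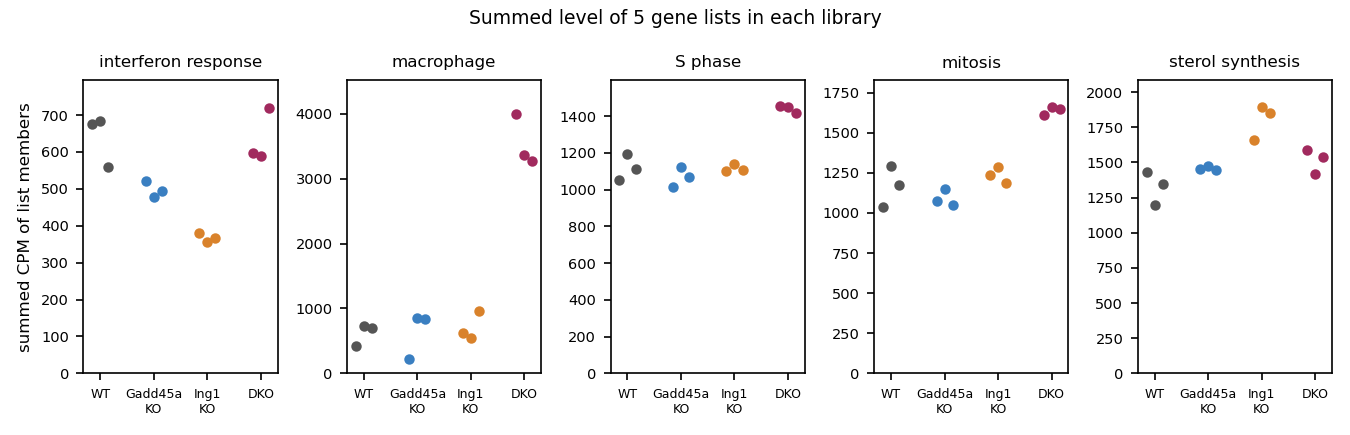
Summed CPM of the members of 5 gene lists (vertical axes from 0) in each of the 12 libraries, by group. Interferon genes are lowest in Ing1 KO (356 to 381) and back at 588 to 718 in DKO; macrophage genes (3276 to 3997), replication genes (1415 to 1456) and mitosis genes (1611 to 1662) are highest in DKO, and sterol genes (1657 to 1897) in Ing1 KO.

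Sterol synthesis genes departed downward, after a rise with Ing1 loss in the WT background. These enzymes make cholesterol under the control of Srebf2, the factor freed when sterols are scarce. Of 24 members tested 13 were called below the sum and 0 above (54.2% against 7.4% of all genes), with a median of -0.38. In the WT background 21 of the 24 rose on Ing1 loss, with a median of 0.47, and in the labelled Gadd45a KO background 2 rose and 0 fell, with a median of 0.04. Ing1 KO was the group apart for 7 of the 13 and 6 had no group apart, and 6 of the 24 members were also higher in DKO than in WT. All 13 were thus changed in the WT background alone. Leaving out 1 library at a time gave counts from 7 to 14, the lowest without the second WT, Ing1 KO or DKO library.

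Mvd, which makes isopentenyl diphosphate, stood at 25.7, 19.9 and 20.5 CPM in WT, 26.9, 25.3 and 25.9 CPM in Gadd45a KO, 29.7, 34.6 and 33.9 CPM in Ing1 KO and 25.3, 22.5 and 24 CPM in DKO. Ing1 KO lay above the other 9 libraries, the sum gave 38.7 CPM, and the interaction was -0.69 ± 0.13 (adjusted p = 0.0053, edgeR). Srebf2 itself had -0.44 ± 0.08. For Srebf2 the group farthest from the others was WT, which was lowest, at 158 to 189 CPM against 195 to 241 CPM in the other 9 libraries. Fasn and Scd1, which make and desaturate fatty acids, had -0.71 ± 0.13 and -0.47 ± 0.09. Both rose with Ing1 loss in the WT background. Fasn differed from WT by -0.01 in DKO (adjusted p = 0.951, edgeR), and Scd1 was also higher in DKO than in WT, by 0.25 on the log2 scale (adjusted p = 0.00938, edgeR).

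Other genes were high in Ing1 KO alone. Rbfox1, a splicing regulator of neurons and muscle, stood at 1.66, 1.1 and 1.41 CPM in WT, 2.76, 1.84 and 1.79 CPM in Gadd45a KO, 5.66, 6.19 and 3.74 CPM in Ing1 KO and 1.67, 1.86 and 1.51 CPM in DKO. The sum gave 7.96 CPM, and the interaction was -2.24 ± 0.33 (adjusted p = 0.00198, edgeR). Developmental transcription factors had the same pattern. Pitx1, a hindlimb factor, averaged highest in Ing1 KO, at 6.02 to 7.31 CPM against 1.02 to 3 CPM over the other 9 libraries, with -1.85 ± 0.46. Scx, a tendon factor, had -1.75 ± 0.39, and Gata2, a factor of blood and other lineages, -2.01 ± 0.49, though 1 of 3 Ing1 KO libraries, at 2.9 CPM, was near the others. The calls of Gata2 and Pitx1 were lost without the second WT or the second DKO library. That of Gata2 was also lost without the first DKO library.

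Matrix genes of the fibroblasts themselves were called in shares near those of all genes. Of 32 members 5 were called above the sum (15.6% against 10.4% of all genes) and 2 below (6.25% against 7.4%), with a median of -0.01. Fn1, fibronectin, stood at 7771, 7532 and 7814 CPM in WT, 8357, 8114 and 7913 CPM in Gadd45a KO, 9929, 11068 and 10568 CPM in Ing1 KO and 7601, 6652 and 8563 CPM in DKO. It was high in Ing1 KO alone, with -0.55 ± 0.11 (adjusted p = 0.00663, edgeR), and it overlaps Apol7d on the other strand. Fbln1, fibulin 1, was low in Ing1 KO, at 150 to 190 CPM against 256 to 333 CPM elsewhere, with 0.72 ± 0.13. Col1a1, the main collagen, averaged 19492 to 22068 CPM over the groups, with -0.13 ± 0.11 and no call. Of 20 contractile genes 4 were called below the sum (20% against 7.4% of all genes) and 0 above (against 10.4%). Leaving out 1 library at a time gave 1 to 7 below, with 1 without the second WT, Ing1 KO or DKO library. Among the 4 was Cnn1, calponin, which rose in both backgrounds, by 0.81 and 0.39, with -0.42 ± 0.12.

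Some genes were lowest in DKO alone. Aqp1, a water channel, stood at 34.9, 21.9 and 24.3 CPM in WT, 20.6 ± 4.6 CPM in Gadd45a KO (SD, n = 3), 63, 30.2 and 22.1 CPM in Ing1 KO and 6.53, 4.9 and 6.13 CPM in DKO. It had the most negative interaction of the genes ranked, -2.31 ± 0.56 (adjusted p = 0.026, edgeR), with the call lost when any of 7 libraries was left out. Lama1, a laminin chain of basement membranes, had -1.9 ± 0.37, and Egflam, a matrix protein that overlaps Gm16029, -1.94 ± 0.41. Cdh13, a cadherin without a cytoplasmic domain, had -1.74 ± 0.34. Of the 12 most negative genes the group apart was DKO for 5 and Ing1 KO for 5, and Zic4 and Adcyap1r1 had no group apart.

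Some stress and growth response genes departed downward. Of 25 genes of amino acid and unfolded protein stress, 12 were called below the sum (48% against 7.4% of all genes). Another 1 was called above it (4% against 10.4%), and the median over the 25 was -0.28. Atf5, a stress-induced transcription factor that overlaps Il4i1, stood at 243 to 305 CPM in WT, 301 to 352 CPM in Gadd45a KO, 245 to 303 CPM in Ing1 KO and 169, 181 and 191 CPM in DKO, with -0.94 ± 0.15 (adjusted p = 0.00343, edgeR). Trib3, a pseudokinase induced by the same stress, had -0.76 ± 0.13. Of 26 immediate early genes 9 were called below (34.6% against 7.4% of all genes) and 1 above (3.85% against 10.4%). Egr1 rose with Ing1 loss in the WT background by 0.29 and fell in the other by 0.47 (-0.47), with an interaction of -0.76 ± 0.1, while Atf3 was the member above the sum, at 9.19 to 10.1 CPM in DKO against 4.29 to 6.21 CPM elsewhere (0.99 ± 0.19). Myc averaged 26.5, 29.3, 37.1 and 27.4 CPM in WT, Gadd45a KO, Ing1 KO and DKO, with -0.58 ± 0.14.

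Of 28 targets of p53, the factor that induces Gadd45a after DNA damage, 8 were called below the sum (28.6% against 7.4% of all genes). Another 2 were called above it (7.14% against 10.4% of all genes). Sesn1, a sestrin that restrains mTORC1, fell with Ing1 loss in the WT background and rose in the other. It stood at 26.3 to 29.2 CPM in WT and 22.4 to 24.5 CPM in Ing1 KO. In Gadd45a KO it stood at 26.4 to 28.3 CPM and in DKO at 33.7 to 37.8 CPM (0.65 ± 0.08). Plk2 and Bbc3, the latter a killer protein of the Bcl2 family, did the reverse, with -0.9 ± 0.12 and -0.99 ± 0.18. Cdkn1a, which encodes the cell cycle inhibitor p21, averaged 367, 384, 484 and 416 CPM in WT, Gadd45a KO, Ing1 KO and DKO, and its interaction of -0.29 ± 0.12 was not called (adjusted p = 0.114, edgeR).

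**Figure D5:**
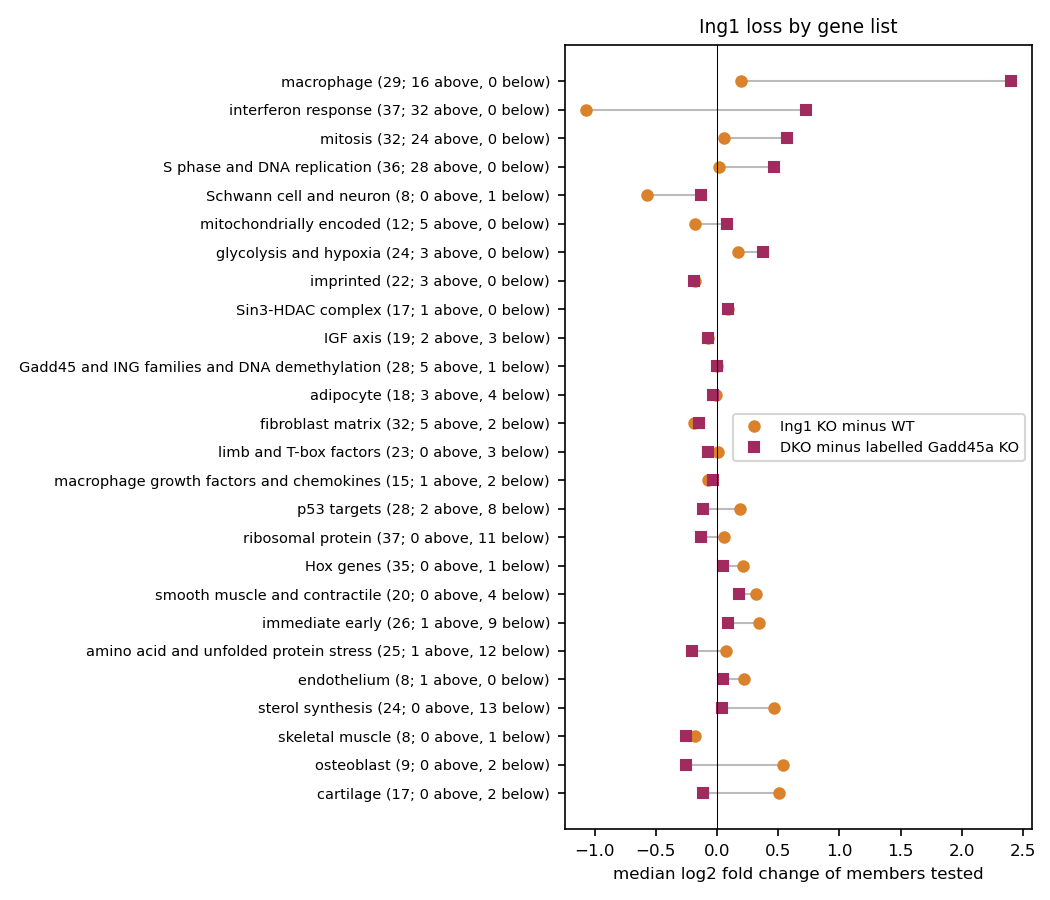
Median log2 fold change on Ing1 loss (horizontal axis) of the members of each list with 8 or more members tested, in the WT background (circles) and in the labelled Gadd45a KO background (squares), ordered by median interaction. The interferon list runs from -1.07 to 0.73 and the macrophage list from 0.2 to 2.4, while the sterol list runs from 0.47 down to 0.04.

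Of 28 members of the Gadd45 and ING families and of DNA demethylation, 5 were called above the sum (17.9% against 10.4% of all genes) and 1 below (3.57% against 7.4%), with a median of 0.02. Tet1, which oxidises methylated cytosine, averaged 19.1, 18.9, 14.2 and 19 CPM in WT, Gadd45a KO, Ing1 KO and DKO, with 0.44 ± 0.11 (adjusted p = 0.0187, edgeR). Mbd3, a subunit of a deacetylase complex, had -0.31 ± 0.07, and Apobec1, a cytidine deaminase, 1.64 ± 0.33 with a rise in DKO alone. Gadd45b and Gadd45g, the other Gadd45 genes, had -0.21 ± 0.1 and -0.38 ± 0.13, neither called. Of 17 genes of the Sin3-HDAC complex, in which Ing1 works, 1 was called above the sum and 0 below. The share above was 5.88%, against 10.4% of all genes. The called gene, Sap30, stood at 13.2 to 14.5 CPM in DKO against 6.56 to 9.54 CPM elsewhere (0.74 ± 0.18). Its call was lost without the third WT library or without the second Ing1 KO library.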

How the data were processed

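RNA of 12 cultures of mouse embryonic fibroblasts was sequenced as single reads of 51 cycles from libraries without strand information, per the labels' protocols. The deposited values are whole-number read counts by gene, with a table for each library. The submitters' processing notes name TopHat2 2.0.9, Bowtie2 2.1.0, HTSeq 0.5.4 and the builds mm9 and NCBIM37, and the sources used here give no strand setting. The 5 summary lines of each table were left out, and 23.89% to 24.91% of reads were assigned to no gene. Multiply mapped reads are among the latter, so families with near-identical members, such as Ifit, Oas and Gbp genes, are uncertain. Of 37991 gene identifiers 32919 had a symbol in a GENCODE annotation of another build, GRCm38, used for names and exon overlaps.

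Counts were fitted with edgeR 4.0.16 in R 4.3.3: TMM scaling, filterByExpr, 1 model of 4 group means, robust quasi-likelihood dispersions with 8 residual degrees of freedom, two-sided tests and Benjamini-Hochberg adjustment within each contrast over 15098 genes. CPM used TMM-scaled library sizes. Genes are named by rule: both targeted genes, the 12 most positive and 12 most negative called interactions with a mean of 2 CPM or more, 4 per group of departure, and up to 3 per list by adjusted p, or the 2 most abundant; other list members given as averages were chosen after their values were seen. The design, the 29 lists and this rule were chosen with earlier results of these data known. An exact permutation test of 3 against 3 cannot go below a two-sided p of 0.1, so none was run. Same-numbered libraries had correlations of their deviations from -0.18 to 0.34. Those of WT with Gadd45a KO were all over 0.1 (0.34, 0.11 and 0.13), but those of the other group pairs were not, so the numbers were not taken to pair the 4 groups. The fit was tested on simulated data. Other scaling, filters, DESeq2 1.42.0, a replicate block and leaving out each library were tried. Promoters came from RefSeq on GRCm38.p6. Results on some genes are not reported here.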

Additional observations from a re-analysis of the deposited data

Results flagged for a closer look

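The change on Ing1 loss differed between the WT background and the labelled Gadd45a KO background, by edgeR's test of the difference itself, for 2687 genes. Of these, 191 were called in both backgrounds with opposite directions. All genes named as called in the results meet this test, and those named here are the named genes whose Ing1 effect was called in both directions.

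Antiviral and related genes fell with Ing1 loss in the WT background and rose in the other, with an interaction on the log2 scale of 3.59 for Ifit1, 3.52 for Isg15, 3.35 for Usp18, 2.11 for Bst2, 1.79 for Trim30a, 1.95 for Igtp and 0.91 for Eif2ak2. Igtp shares exons with Irgm2 on the same strand. The same order of directions was found, again as the interaction, with 1.32 for Tmem106a, 0.53 for Rrm1, 0.65 for Sesn1, 1.15 for Aldoc, 0.76 for mt-Atp8, 0.42 for mt-Co2 and 0.42 for mt-Co1. Of these, mt-Atp8 shares bases with mt-Atp6, and Rrm1 makes nucleotides for replication.

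The opposite order, a rise with Ing1 loss in the WT background and a fall in the labelled Gadd45a KO background, was found with an interaction of -2.12 for Plin4, -0.90 for Plk2, -0.99 for Bbc3, -0.76 for Egr1, -0.66 for Rpl10a and -0.98 for Cx3cl1. Plin4 was low in every group, averaging 0.5 CPM in WT, 0.481 in Gadd45a KO, 1.1 in Ing1 KO and 0.242 in DKO. It coats lipid droplets and overlaps Hdgfl2 on the other strand, and Cx3cl1 is the ligand of the macrophage receptor Cx3cr1. With 3 libraries in a group, single libraries were not tested for standing apart.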

How the results depend on the processing

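Of the 105 genes named by rule 99 were called, and none of these changed direction in the settings in which they were tested. With a mean of at least 2 CPM, 99 of the 105 were tested. A change of direction without a call in either fit was not counted. The other list members given were not followed through the settings. The total of 2687 called interactions was 2675 with DESeq2's size factors in edgeR, 2260 without a filter on low counts, 2607 with a mean of at least 2 CPM, 2968 with DESeq2 and 2514 with the replicate number as a block, although the numbers were not taken to pair the libraries. Under that block 6 of the 105 lost their call (Col10a1, Dcn, Hoxc5, Il33, Krt7 and Pdk1). The share above the sum was 58.4% of calls with TMM, 54.5% with the other size factors and 48.3% without the filter. The counts rest on single libraries: leaving out 1 at a time gave 1300 to 3285 calls, of which 804 to 1824 lay above and 496 to 1461 below the sum, with 1300 without the second WT library, 1599 without the third, 1386 without the second Ing1 KO library and 1607 without the second DKO library. In all 12 of these fits 1160 genes were called (43.2% of the 2687), among them 29 interferon, 20 mitosis, 15 replication, 7 sterol and 2 macrophage genes. The 3285 calls, more than the 2687 of the full fit, came without the first WT library. The cause of these shifts was not tested.

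Leaving out 1 library, the lowest and highest counts were 455 and 955 with DKO apart, 92 and 455 with Ing1 KO apart and 634 and 2128 with no group apart. For the Ing1 effect they were 82 and 284 with opposite directions, 22 and 97 with the same direction, 375 and 1248 called only in the WT background, 706 and 1409 called only in the labelled Gadd45a KO background and 75 and 299 in neither. By largest distance DKO was named for 1418 genes and Ing1 KO for 1028. Members called ran from 2 to 24 for macrophage, 7 to 14 for sterol, 15 to 29 for replication, 5 to 9 for immediate early genes below the sum, 5 to 18 for ribosomal protein genes below the sum and 0 to 2 for amino acid stress genes above it. Macrophage members called were 7 without the filter and 29 with DESeq2, ribosomal protein members below the sum 18 with DESeq2, immediate early members above the sum 2 with the replicate block, and amino acid stress members above the sum 0 with the other size factors and 0 without the filter. On the linear scale 0 of 2687 departures changed sign.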

Other observations

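Ribosomal protein genes lay below the sum for 11 of 37 members tested (29.7% against 7.4% of all genes) and above it for 0, with a median of -0.18, and Rpl8 averaged highest in Ing1 KO, at 660 to 732 CPM against 535 to 641 CPM over the other 9 libraries, with -0.36 ± 0.08 (adjusted p = 0.00931, edgeR). Ribosomal protein genes have many pseudogene copies, which makes their counts uncertain. Genes of the mitochondrial genome lay above the sum for 5 of 12 (41.7% against 10.4% of all genes). The cytochrome oxidase gene mt-Co2 stood at 1020, 1007 and 1048 CPM in WT, 904, 885 and 839 CPM in Gadd45a KO, 894, 799 and 891 CPM in Ing1 KO and 977, 994 and 990 CPM in DKO, so both single losses were below WT and DKO was between (0.42 ± 0.07).

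Of 24 genes of glycolysis and hypoxia 3 lay above the sum (12.5% against 10.4%), and 1 to 4 when 1 library was left out, among them Pdk1, the kinase that keeps pyruvate out of mitochondria, at 118 to 130 CPM in DKO against 69.5 to 93.9 CPM elsewhere (0.63 ± 0.19), a call that was lost in 11 of the alternatives, among them the replicate block. Among skeletal tissue genes, which belong to other cells that an embryo culture can hold, Prg4, lubricin, Col10a1, a collagen of hypertrophic cartilage, and Msx2, a bone factor, rose in Ing1 KO alone, with -1.81 ± 0.45, -1.52 ± 0.44 and -1.47 ± 0.32. Levels were low: in WT and Ing1 KO, Prg4 averaged 0.459 and 1.39 CPM, Col10a1 1.22 and 4.34 CPM and Msx2 1.09 and 2.32 CPM. Prg4 overlaps Tpr and Col10a1 overlaps Nt5dc1 on the other strand. The call of Col10a1 was lost in 7 of the alternatives, the replicate block included. The summed osteoblast genes differed widely within Ing1 KO, at 1515, 831 and 537 CPM. They stood at 179 to 452 CPM in WT and Gadd45a KO and at 587 to 733 CPM in DKO. In the IGF axis, Irs1, the insulin receptor substrate, fell in both backgrounds, by 0.3 (-0.3) in WT and by 0.88 (-0.88) in the labelled Gadd45a KO background, with -0.58 ± 0.12. Il34, a ligand of Csf1r, fell in DKO, to 1.36 to 1.93 CPM from 2.61 to 4.74 CPM in the other 9 libraries (-1.17 ± 0.3), while Csf1, the main ligand, averaged 219 to 240 CPM over the groups and was not called (-0.02 ± 0.06).

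Of 35 Hox genes 1 was called below the sum (2.86% against 7.4% of all genes) and 0 above. It was Hoxc5 (-0.56 ± 0.18), a call lost in 11 of the alternatives. The Hox count was 0 with the replicate block, 5 with DESeq2 and 0 to 7 when 1 library was left out, with 7 without the third Ing1 KO library. Of 23 limb factors 3 lay below the sum (13% against 7.4% of all genes) and 0 above. Adipocyte genes had 3 of 18 above (16.7%) and 4 below (22.2%), against 10.4% and 7.4% of all genes. Imprinted genes had 3 of 22 above (13.6% against 10.4% of all genes) and 0 below. Cartilage genes had 2 of 17 below (11.8% against 7.4%) and 0 above. Epithelial genes had 1 of 4 below (25%), and skeletal muscle genes and Schwann cell and neuron genes each 1 of 8 below (12.5%). Endothelial genes had 1 of 8 above (12.5%). All genes tested had 7.4% below and 10.4% above, and 1 call in so short a list cannot be told from these shares. Mast cell and neutrophil genes had 0 calls of 2 in edgeR and 0 with DESeq2, with 1 at an unadjusted p under 0.05, and erythroid genes had 0 of 2 by all 3 counts.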
